A study of Homo sapiens with 3 samples.

Results

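Imprinted genes are expressed mainly from the allele of a single parent, and 36 of them were looked up by symbol in an RNA-seq table of breast cancer cells carrying different forms of KAP1. Lines were found for 31 of the 36 among 19049 genes. The levels of PEG3, ZIM2, NDN, MAGEL2 and NAP1L5 were not analysed here. The genes were picked by name, with no threshold on a measured value but with earlier results of these data known.

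The cells (MDA-MB-231) are an established basal-like breast cancer line in which a short hairpin RNA depleted KAP1 and a KAP1 form was then expressed again. In S473D cells the re-expressed protein carries aspartate in place of a serine, in S473A cells alanine, and in wt cells the serine is intact. That serine is a target of DNA damage kinases; aspartate is commonly used to mimic its phosphorylation and alanine to prevent it. Every group thus shares the depletion, and each is 1 library of total RNA from serum-fed culture. The labels do not say whether the cells were clones or pools, and there was no library of the parental line among the samples.

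Genomic imprints are DNA methylation marks laid down in the egg or the sperm, and in each domain they keep a set of genes silent on the allele of that parent. After fertilisation, when most methylation is erased, zinc finger proteins such as ZFP57 and ZNF445 bind the methylated control regions and bring in KAP1 (gene TRIM28), which recruits the histone methyltransferase SETDB1 and DNA methyltransferases that keep the mark. Many imprinted genes act on fetal growth, the placenta, or the brain, and in tumour lines their allele-specific expression is often lost. These RNA values do not separate the parental alleles, so they give the summed level of each gene and not its imprint.

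ZFP57 is known to bind the letters TGCCGC when the CpG in them is methylated. RefSeq promoter windows (GRCh38.p14, from 250 bases before a transcript start to 50 after it) were matched by symbol for 25 of the 36 genes, counted as 24 because SNRPN and SNURF share a window, and were read for TGCCGC on either strand, that is TGCCGC or GCGGCA as printed. The letters were in at least 1 window of 13 of those 24 genes (54.2%), against 19.4% of all 27167 genes with a window and 32.4% of genes with a window of at least 18 CpG. The imprinted genes had more windows each, 57 for 24 genes against 34943 for 27167, which raises a share counted over genes. Counted by window, 36.8% of 57 windows of imprinted genes held them, against 16.7% of all 34943 windows. Windows of the same gene can overlap, as some of MEG3, MEST and BLCAP do, so a count by window can take the same letters more than once. The median imprinted window had 18 CpG, against 14 in all windows, and among all windows with at least 18 CpG the share was 29.7%. Windows with at least 18 CpG had a median of 30 CpG, so they are not matched in CpG to the imprinted windows. A forward and a reverse match that overlap, a form singled out after the sequences had been read, stood in windows of 2 of the 24 imprinted genes, DIRAS3 and MEST, and of 20 of the 27167 genes. The windows printed here belong to the genes with the largest differences between libraries, MEST and IGF2R, and to DIRAS3, PLAGL1 and SNURF, which were silent. Only windows that held the letters are printed. PLAGL1 and MEST also had windows without them, and the windows of H19, ZNF597, PPP1R9A and TFPI2 held none. Those of COPG2, INPP5F, RB1, MKRN3, MAGEL2, UBE3A and ZNF331 held none either. Control regions outside these promoter windows were not read, so a gene without a match here may hold the letters elsewhere. Capitals mark TGCCGC or its reverse complement, and adjoining runs can hold an overlapping pair. The MEST sequences are on the plus strand at chr7:130485925-130486224 for the upstream promoter and at chr7:130491835-130492134 for the downstream promoter. IGF2R is on the plus strand at chr6:159968832-159969131 and SNURF, whose window is also a start of SNRPN, on the plus strand at chr15:24954737-24955036. DIRAS3 is on the minus strand at chr1:68050578-68050877 and PLAGL1 on the minus strand at chr6:144008210-144008509.
MEST upstream: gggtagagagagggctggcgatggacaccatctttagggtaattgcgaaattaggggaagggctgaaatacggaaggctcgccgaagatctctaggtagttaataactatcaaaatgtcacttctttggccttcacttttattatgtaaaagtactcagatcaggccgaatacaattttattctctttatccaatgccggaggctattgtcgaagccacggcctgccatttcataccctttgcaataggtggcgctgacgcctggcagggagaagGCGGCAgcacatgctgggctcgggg
MEST downstream: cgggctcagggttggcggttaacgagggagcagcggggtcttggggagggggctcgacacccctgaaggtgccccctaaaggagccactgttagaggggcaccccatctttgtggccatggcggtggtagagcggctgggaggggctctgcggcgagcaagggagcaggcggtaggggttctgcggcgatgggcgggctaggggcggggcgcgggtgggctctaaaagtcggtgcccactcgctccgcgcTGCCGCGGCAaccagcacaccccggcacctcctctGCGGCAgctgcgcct
IGF2R: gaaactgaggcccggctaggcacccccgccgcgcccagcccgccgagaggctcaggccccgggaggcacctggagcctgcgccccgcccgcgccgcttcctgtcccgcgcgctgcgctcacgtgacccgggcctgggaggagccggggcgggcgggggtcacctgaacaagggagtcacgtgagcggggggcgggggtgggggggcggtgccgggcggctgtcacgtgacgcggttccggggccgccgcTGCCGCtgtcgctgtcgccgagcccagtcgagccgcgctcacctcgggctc
SNURF: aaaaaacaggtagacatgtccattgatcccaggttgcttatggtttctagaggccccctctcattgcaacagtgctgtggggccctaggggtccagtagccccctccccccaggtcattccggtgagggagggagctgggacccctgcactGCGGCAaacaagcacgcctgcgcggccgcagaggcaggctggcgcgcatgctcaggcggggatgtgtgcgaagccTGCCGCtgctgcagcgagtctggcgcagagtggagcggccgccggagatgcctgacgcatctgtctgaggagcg
DIRAS3: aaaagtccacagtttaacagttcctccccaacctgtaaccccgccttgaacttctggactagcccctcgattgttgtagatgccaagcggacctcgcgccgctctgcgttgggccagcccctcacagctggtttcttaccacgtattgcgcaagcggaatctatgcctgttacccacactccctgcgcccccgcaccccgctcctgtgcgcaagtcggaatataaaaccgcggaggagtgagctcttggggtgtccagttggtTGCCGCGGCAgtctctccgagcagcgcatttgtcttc
PLAGL1: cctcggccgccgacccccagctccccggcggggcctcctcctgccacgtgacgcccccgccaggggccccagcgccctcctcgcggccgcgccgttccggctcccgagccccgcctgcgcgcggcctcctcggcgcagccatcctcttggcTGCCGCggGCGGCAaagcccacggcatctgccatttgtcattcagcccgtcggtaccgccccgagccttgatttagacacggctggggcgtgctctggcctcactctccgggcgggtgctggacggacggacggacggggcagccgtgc
The downstream MEST window held 3 matches, the windows of SNURF, DIRAS3 and PLAGL1 held 2 each, and the IGF2R window held 1. A match is a string of letters and says nothing of methylation or binding in these cells. Of genes with a window, 5 of 8 silent genes held the letters in at least 1 window (47.1% of 17 windows), against 6 of 13 expressed genes (29.7% of 37 windows). The MEG3 windows among the 17 nearly coincide, and each held 1 match. The rest of the 24 are NDN, MAGEL2 and NAP1L5, whose levels were not analysed.

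Levels are given in RPKM, read counts scaled to gene length and library size, so that genes can be compared per length. The depth was estimated at about 23800000 reads for S473D, 29300000 for S473A and 25600000 for wt. Since each group is a single library, no p-value can be given and a difference describes a pair of libraries, not of conditions. In such bulk RNA, fewer cells expressing a gene and less RNA per cell cannot be told apart. The S473D library stood apart: against wt, the median difference on a log2 scale was 0.22 for 2537 genes with transcripts under 2 kb and -0.28 for 822 genes over 8 kb, whereas S473A against wt was at 0.00 in both classes. Intervals in brackets are exact 95% intervals for counting error of a ratio of RPKM. TRIM28 itself stood at 25.6 RPKM in S473D, 32.3 in S473A and 28.7 in wt, which does not separate re-expressed from endogenous transcript. Of the marker genes read, vimentin, ESR1, CDH1 and PTPRC went with the labelled cell line. Vimentin (VIM) stood between 673 and 740 RPKM. The estrogen receptor gene ESR1, the E-cadherin gene CDH1 and the leukocyte gene PTPRC were each at 0.240 RPKM or lower in every library. The receptor gene ERBB2 and the collagen gene COL1A1 were low but above 1 RPKM in every library. ERBB2 stood between 5.34 and 7.94 RPKM and COL1A1 between 1.63 and 1.66 RPKM.

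Of the 31 genes, 12 were silent in this line, meaning below 1 RPKM in every library, and 19 had a mean of at least 1 RPKM. The silent share was 38.7%, against 36.3% of 18555 genes when short RNAs are left out. Below 0.1 RPKM in every library were 9 of the 31, against 19.5% of those genes. SNRPN alone was listed at 0 in all 3 libraries, as were 0.884% of those genes.

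In the 11p15.5 domain H19, IGF2 and KCNQ1OT1 were below 1 RPKM in every library. H19, a noncoding RNA expressed from the maternal allele, was at 0.036 RPKM in S473D, 0.088 in S473A and listed at 0 in wt. IGF2, the paternally expressed fetal growth factor that shares enhancers with H19, was at 0.033 RPKM in S473D, 0.033 in S473A and 0.023 in wt. KCNQ1OT1, the long antisense RNA that silences its neighbours on the paternal allele, was low but was read: 0.101 RPKM in S473D, 0.143 in S473A and 0.149 in wt. Its transcript of 91667 nucleotides makes those values an estimated 221, 383 and 349 reads, in the same order of libraries. For KCNQ1OT1 the ratio of S473D to wt was 0.682 (0.572 to 0.807) and that of S473D to S473A 0.710 (0.598 to 0.838). The S473D library was thus low beyond counting error. Of 10785 genes averaging 1 RPKM or more, 45.5% had such an interval below 1 for S473D and wt. Long transcripts were lower in S473D, with a median difference from wt of -0.28 for 822 genes over 8 kb. The part of length in the KCNQ1OT1 ratio was not tested.

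The Prader-Willi and Angelman region on 15q11.2 was mixed. SNRPN, which encodes a spliceosomal Sm protein found mainly in brain, was listed at 0 in all 3 libraries, where 3 reads would have given 0.0649 RPKM in S473D, 0.0528 in S473A and 0.0604 in wt. SNURF, encoded on the same transcript, was listed at 0 in S473D and wt and at 0.080 RPKM in S473A, which is about 1 read. SNRPN and SNURF share 814 exonic bases, so a counting rule that drops shared reads would lower both, and the rule used is not given in the sources used here. ATP10A, a phospholipid flippase gene in the adjoining 15q12 band, was at 0.175 RPKM in S473D, 0.207 in S473A and 0.267 in wt. MKRN3, a makorin ring finger gene that restrains puberty, was expressed at a low level, 1.98 RPKM in S473D, 2.49 in S473A and 2.29 in wt. UBE3A, the ubiquitin ligase gene imprinted in neurons, was at 16.6 RPKM in S473D, 19.4 in S473A and 18.2 in wt. Its ratio of S473D to wt was 0.913 (0.861 to 0.969).

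The 14q32.2 pair was silent. The Notch-ligand-like gene DLK1 was at 0.021 RPKM in S473A and listed at 0 in S473D and wt. Its maternally expressed neighbour MEG3, a noncoding RNA, was at 0.009 RPKM in S473D, 0.025 in S473A and 0 in wt. PLAGL1, a zinc finger growth regulator on 6q24.2, was at 0.037 RPKM in S473A and listed at 0 in S473D and wt. DIRAS3, a Ras-like tumour suppressor gene that is often silenced in breast cancer, was at 0.021 RPKM in S473A and 0 in the other libraries. The zinc finger gene ZNF597 was at 0.023 RPKM in S473D and listed at 0 in S473A and wt. PPP1R9A, which encodes the neuronal actin-binding protein neurabin, was the highest of the silent genes, at 0.347 RPKM in S473D, 0.488 in S473A and 0.407 in wt. Apart from KCNQ1OT1, ATP10A and PPP1R9A, each silent gene rested on 10 estimated reads or fewer in each library, and no difference among libraries is drawn from them.

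**Figure D1:**
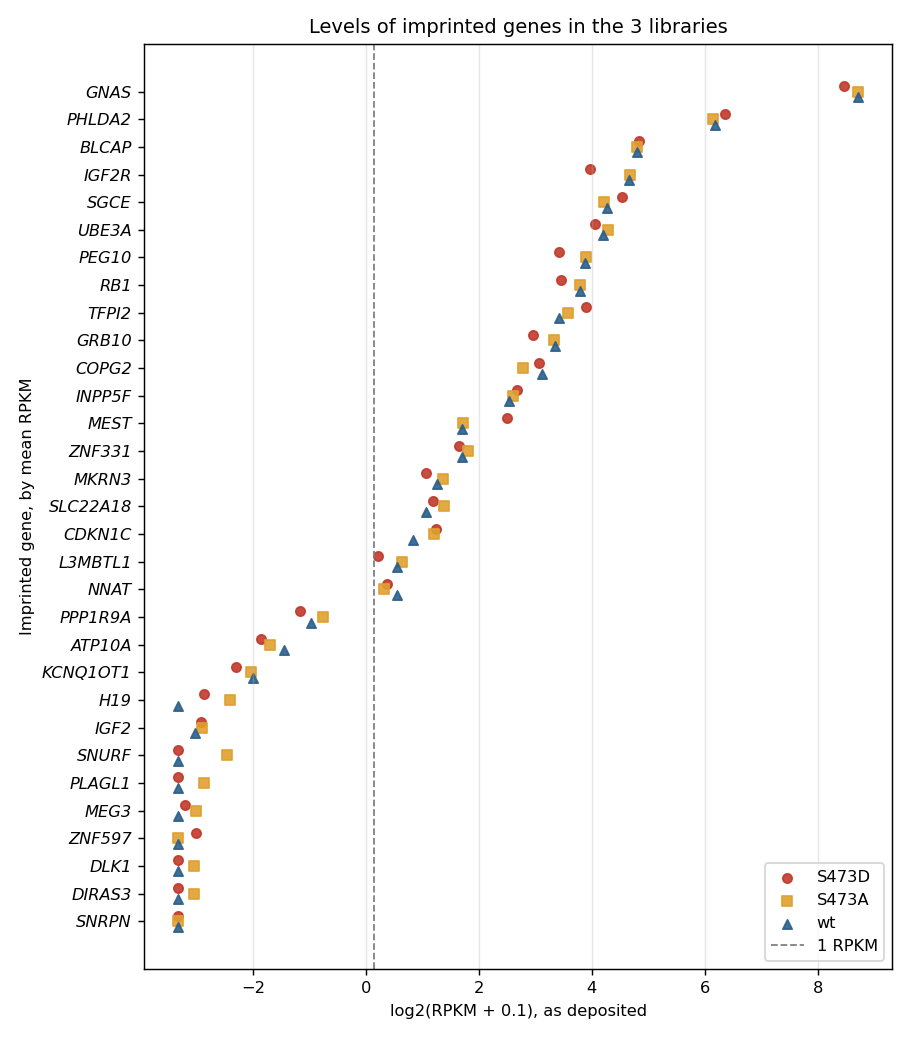
Levels of the 31 imprinted genes, 1 row per gene ordered by mean RPKM, on the deposited log2(RPKM + 0.1) axis, with 1 point per library (S473D, S473A, wt). The dashed line marks 1 RPKM: 12 genes lie left of it in every library, and GNAS is the highest gene at 355 to 422 RPKM.

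Expressed genes ran from NNAT and L3MBTL1, near 1 RPKM, to GNAS. GNAS, which encodes the alpha subunit of the stimulatory G protein and has several imprinted promoters, was at 355 RPKM in S473D, 422 in S473A and 421 in wt, rank 102 of all genes in wt. PHLDA2, a maternally expressed gene that restrains growth of the placenta, followed at 81.6 RPKM in S473D, 71.1 in S473A and 72.3 in wt. Its 11p15.5 neighbours were far lower. CDKN1C, the gene of the cell cycle inhibitor p57, was at 2.25 RPKM in S473D, 2.20 in S473A and 1.67 in wt, and the transporter gene SLC22A18 at 2.17 RPKM in S473D, 2.49 in S473A and 1.99 in wt. The counting intervals of every ratio of CDKN1C and SLC22A18 between libraries included 1.

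Differences are on the log2(RPKM + 1) scale, where low genes look closer together than they are. They were computed for all 11569 genes averaging 1 RPKM or more, of which 39.3% were higher in S473D than in wt, against 49.4% with trimmed mean scaling and an even split with differences centred on their median. Between S473D and wt, 2 of the 19 were at least 1.5-fold apart, MEST higher and IGF2R lower, against 10.1% of all genes. Higher by that much were 6.83% of all genes and lower 3.23%. Between S473D and S473A the same 2 genes were past 1.5-fold, against 9.86% of all genes (6.86% higher and 3% lower). Between S473A and wt 0 of the 19 were, against 0.233% of all genes (0.0864% higher and 0.147% lower). At 2-fold, 0 of the 19 passed in any comparison, against 1.09% of all genes for S473D and wt, 1.13% for S473D and S473A and 0.0173% for S473A and wt. With smooth trends on length and GC removed and the median of all genes kept, 0 of the 19 were past 1.5-fold in any comparison. The share of all genes was then 5.01% for S473D and wt, 5% for S473D and S473A and 0.176% for S473A and wt. The count of imprinted genes past 1.5-fold was thus close to the background.

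MEST, a paternally expressed member of the hydrolase family that is active in mesoderm and placenta, had the largest positive difference. It was at 5.54 RPKM in S473D, 3.20 in S473A and 3.16 in wt, so the S473D library stood apart and the other libraries lay together. The S473D level was 1.76 times that of wt (1.47 to 2.11) and 1.73 times that of S473A (1.46 to 2.06), log2 differences of 0.65 and 0.64. S473A and wt differed by 0.01. With the trends removed, the difference of MEST was 0.55 against wt and 0.52 against S473A, both just under 1.5-fold. That step kept the median of all genes, -0.10 in both comparisons, and was not run together with centring. The place of MEST under 1.5-fold therefore depends on keeping that median. COPG2, the coatomer subunit gene whose end meets that of MEST on the opposite strand, was at 8.28 RPKM in S473D, 6.73 in S473A and 8.58 in wt. The annotations of MEST and COPG2 share 228 exonic bases on opposite strands, and whether counting used strand is not given in the sources used here. COPG2 had the largest difference of the 19 genes between S473A and wt, -0.31, a ratio of 0.784 (0.703 to 0.876), and in S473D it was 1.23 times its S473A level, with an interval above 1.

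IGF2R, the gene of the receptor that carries IGF2 to lysosomes and binds mannose 6-phosphate, had the largest negative difference. It was at 15.6 RPKM in S473D, 25.5 in S473A and 25.1 in wt, so again S473D alone stood apart, here on the low side. The ratio of S473D to wt was 0.620 (0.599 to 0.642) and of S473D to S473A 0.611 (0.591 to 0.631), log2 differences of -0.66 and -0.68. Its transcript, 14044 nucleotides, was the longest of the 19, and with the trends removed the differences were -0.37 and -0.40. Imprinting of IGF2R is strict in mouse, while in most people both alleles are expressed.

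At 7q21.3 neighbouring genes differed in opposite directions. PEG10, a paternally expressed gene derived from a retrotransposon and needed for the placenta, was at 10.6 RPKM in S473D, 14.8 in S473A and 14.6 in wt. SGCE, the epsilon-sarcoglycan gene that starts next to PEG10 and is read the other way, was at 23.2 RPKM in S473D, 18.5 in S473A and 19.1 in wt. Against wt, PEG10 in S473D had a ratio of 0.724 (0.680 to 0.771) and SGCE 1.21 (1.11 to 1.33). Against S473A, PEG10 in S473D had a ratio of 0.712 (0.670 to 0.756) and SGCE 1.25 (1.14 to 1.37). Their annotations share 219 exonic bases on opposite strands, and the transcripts measure 6618 nucleotides for PEG10 and 1760 for SGCE. With the trends removed, PEG10 stayed below wt at -0.32 while SGCE, 0.27 as deposited, was at -0.07. TFPI2, a protease inhibitor gene of the extracellular matrix in the same region, was at 14.8 RPKM in S473D, 11.8 in S473A and 10.5 in wt. S473D was 1.41 times wt (1.27 to 1.56) and S473A 1.12 times wt (1.01 to 1.24), so for TFPI2 all 3 libraries were apart beyond counting error. With the trends removed the difference of TFPI2 between S473D and wt was 0.18.

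**Figure D2:**
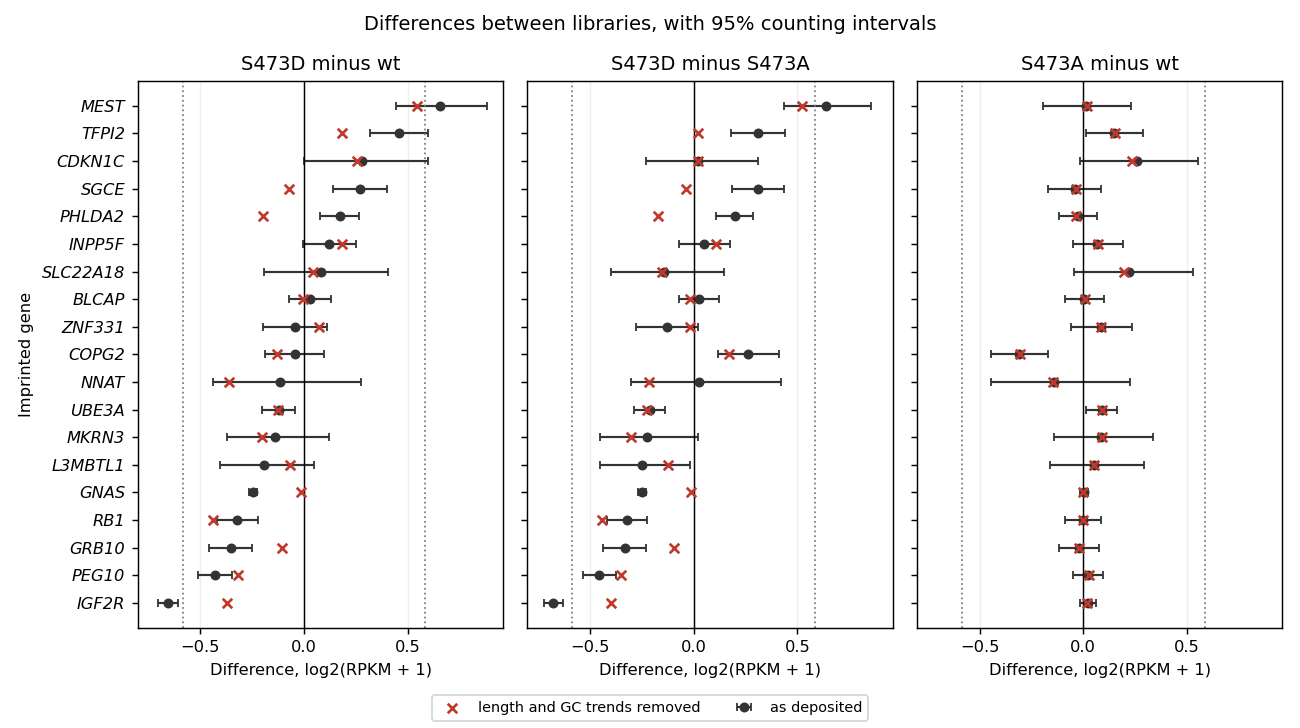
Differences of the 19 expressed imprinted genes between libraries on the log2(RPKM + 1) scale, with 95% counting intervals as bars and crosses for values with length and GC trends removed. Dotted lines mark 1.5-fold. MEST (0.65) and IGF2R (-0.66) lie outside them for S473D against wt as deposited, and S473A and wt are close for most genes.

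Lower in S473D than in both other libraries were also RB1, GRB10 and GNAS. RB1, the retinoblastoma tumour suppressor gene, which has an imprinted CpG island in an intron, was at 10.8 RPKM in S473D, 13.7 in S473A and 13.7 in wt. Its ratio of S473D to wt was 0.785 (0.729 to 0.845), a difference of -0.32 that became -0.44 with the trends removed. GRB10, an adaptor gene that dampens insulin receptor signalling, was at 7.65 RPKM in S473D, 9.90 in S473A and 10.1 in wt, a ratio to wt of 0.761 (0.700 to 0.825). Its difference of -0.35 became -0.11 with the trends removed. For GNAS the ratio of S473D to wt was 0.843 (0.831 to 0.855), a difference of -0.25 that became -0.02. PHLDA2 in S473D was at 1.13 times its wt level (1.06 to 1.21), and its difference was 0.17 as deposited and -0.20 with the trends removed.

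Little separated the remaining genes. BLCAP, which hosts NNAT in an intron, was at 28.4 RPKM in S473D, 27.9 in S473A and 27.8 in wt. NNAT, which encodes the proteolipid neuronatin, was at 1.19 RPKM in S473D, 1.15 in S473A and 1.37 in wt and rested on 36.8 to 45.5 estimated reads. L3MBTL1, a chromatin-compacting gene related to Polycomb, was at 1.06 RPKM in S473D, 1.45 in S473A and 1.36 in wt, with a ratio of S473D to S473A of 0.733 (0.545 to 0.980) and intervals that included 1 for the other pairs. The KRAB zinc finger gene ZNF331 was at 3.03 RPKM in S473D, 3.42 in S473A and 3.16 in wt, and the phosphoinositide phosphatase gene INPP5F at 6.25 RPKM in S473D, 5.99 in S473A and 5.67 in wt. For BLCAP, NNAT, ZNF331 and INPP5F the intervals of every ratio included 1.

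Across the 19 genes the median difference of S473D from wt was -0.05 (8 above 0 and 11 below), against -0.10 for all genes. For S473D against S473A it was -0.13, against -0.10 for all genes, and for S473A against wt 0.02, against 0.00 for all genes. The counting interval excluded a ratio of 1 for 10 of the 19 between S473D and wt, 4 higher and 6 lower, against 72.4% of 10785 genes with a transcript length (26.8% higher and 45.5% lower). For S473D and S473A 12 of the 19 were so, 5 higher and 7 lower, against 73.4% (27.3% higher and 46.1% lower). For S473A and wt 3 of the 19 were so, TFPI2 and UBE3A higher and COPG2 lower, against 15.4% (7.52% higher and 7.89% lower). The comparisons of S473D with wt and with S473A share the S473D library, so their likeness is not independent evidence. By allele, the 6 expressed genes of paternal type had a median difference of S473D from wt of -0.13, the 3 of maternal type 0.17 and the 10 whose imprinting is limited to a tissue, isoform or species -0.08. The maternal median was 0.05 with the trends removed, and against S473A it was 0.02 as deposited and -0.15 with the trends removed. The 3 maternal genes, CDKN1C, PHLDA2 and SLC22A18, all lie in the 11p15.5 domain.

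The shift of S473D with transcript length was present among the imprinted genes. Spearman's rho between transcript length and the difference from wt was -0.64 over the 19, and over all 10785 genes -0.44. For S473A against wt the values were 0.10 and -0.01. All points share the same pair of libraries, and these coefficients are descriptions. The part of length in the differences of single imprinted genes was not tested.

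**Figure D3:**
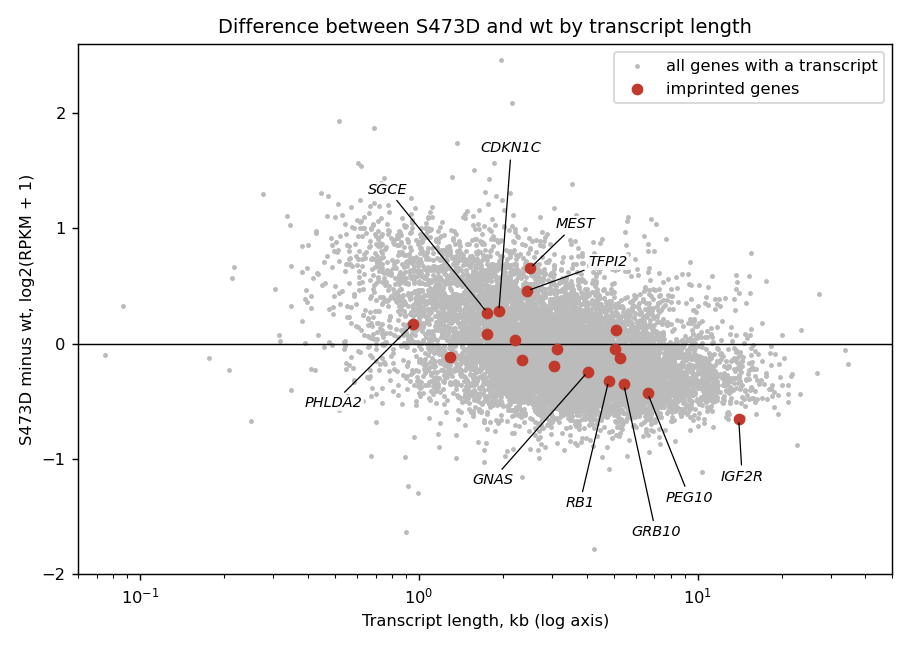
Difference between S473D and wt on the log2(RPKM + 1) scale by transcript length (log axis), for 10785 genes in grey and the 19 expressed imprinted genes in red. IGF2R, the longest of them, has the lowest value (-0.66), and PHLDA2, the shortest, is at 0.17.

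Genes of imprint protection and maintenance were examined as a list of 32, of which 27 had a line and 21 averaged 1 RPKM or more. The 21 include TRIM28 itself (-0.16 in S473D against wt), which was depleted and re-expressed by design. They also include TET2 and TET3, genes of enzymes that remove methylation. Against wt, 19 of the 21 were below 0 in S473D and 2 above, with a median of -0.30 against -0.10 for all genes. Of all 11569 genes 7026 were below 0. With the trends removed the median was -0.16, and 6 of the 21 were above 0, against 3715 of 10785 genes. Against S473A, which shares the S473D library, 19 of the 21 were below 0, with a median of -0.31. With the trends removed that median was -0.15, and 2 of the 21 were above 0, against 3651 of 10785 genes. CTCF, the insulator protein that on the maternal allele keeps IGF2 from the enhancers it shares with H19, was the only 1 of them past 1.5-fold, at 16.1 RPKM in S473D, 24.8 in S473A and 25.5 in wt. Its ratio of S473D to wt was 0.631 (0.591 to 0.672) and its difference -0.63, or -0.53 with the trends removed. TET3 (-0.51), a dioxygenase that removes methylation, ATF7IP (-0.48), a partner of SETDB1, SETDB1 itself (-0.43) and the histone methyltransferase gene EHMT1 (-0.40) followed in S473D against wt. DNMT1, the maintenance methyltransferase gene, was at 50.3 RPKM in S473D, 62.5 in S473A and 61.9 in wt, a difference from wt of -0.29 that was 0.00 with the trends removed. CBX3 (0.46), which encodes a heterochromatin protein, and HELLS (0.31), a chromatin remodeller, were the 2 that were higher, and with the trends removed they stood at 0.11 and 0.07. ZFP57, whose protein binds most imprint control regions, was listed at 0 in S473D and S473A and at 0.04 RPKM in wt. ZNF445, which acts beside it, was at 1.80 RPKM in S473D, 2.99 in S473A and 2.65 in wt. Between S473A and wt the list had a median of 0.02 and 0 of 21 genes past 1.5-fold. The median transcript of the 21 genes was 5408 nucleotides, against 3240 for all genes, and its part in the list's median was not tested.

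**Figure D4:**
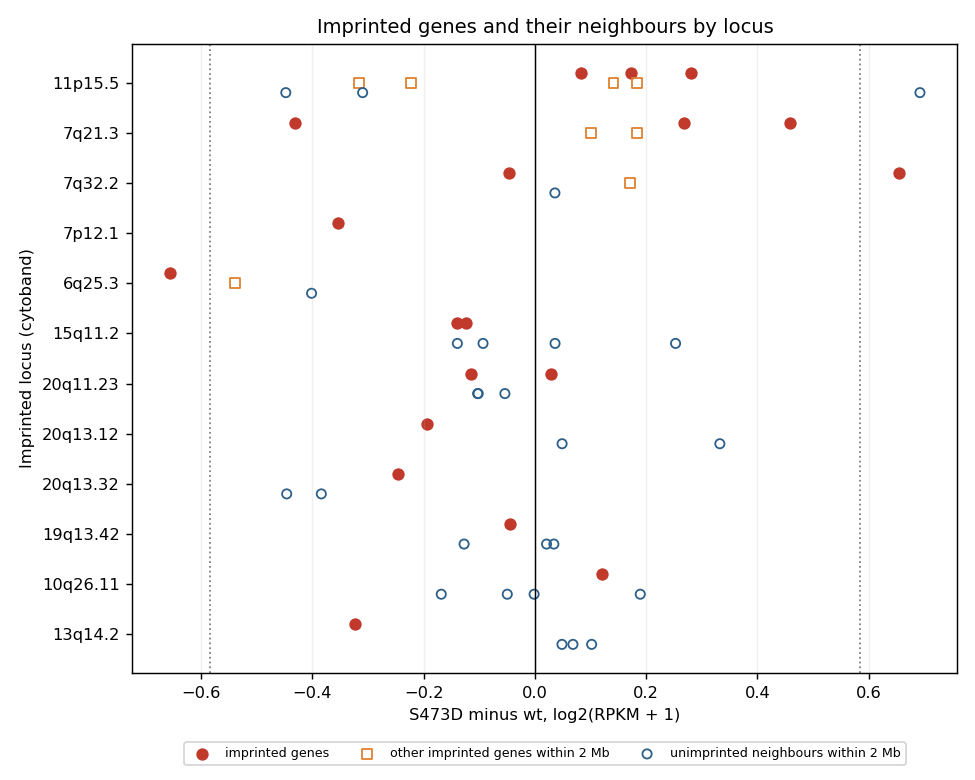
Differences between S473D and wt on the log2(RPKM + 1) scale for expressed imprinted genes (filled), other imprinted genes (squares) and unimprinted neighbours (open circles) within 2 Mb, 1 row per locus by cytoband. The squares and open circles come from chosen lists and do not cover every gene of a locus. Dotted lines mark 1.5-fold. At 6q25.3 IGF2R (-0.66), SLC22A3 (-0.54) and MAP3K4 (-0.40) are all below 0, and at 7q32.2 MEST (0.65) lies above its neighbours.

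Around the loci, the unimprinted neighbours were a chosen list of genes, not every gene there. Of 59 symbols within 2 Mb of an imprinted gene, 50 had a line and 36 averaged 1 RPKM or more. Their median difference between S473D and wt was -0.03, with 17 above 0 and 19 below, and 2 were past 1.5-fold, both higher. These were MRPL23 (0.69), a mitochondrial ribosomal protein gene beside H19, and PIGY (0.67), a gene of glycolipid anchor synthesis, and with the trends removed they stood at 0.25 and -0.26. At 6q25.3, beside IGF2R, SLC22A3 from the list of other imprinted genes and the neighbour MAP3K4 were lower in S473D as well. No other listed gene near IGF2R averaged 1 RPKM or more, and the rest of that region was not examined. SLC22A3, a cation transporter gene imprinted with Igf2r in mouse placenta, was at 3.74 RPKM in S473D, 6.28 in S473A and 5.88 in wt. The kinase gene MAP3K4, farther along the arm, was at 5.30 RPKM in S473D, 7.59 in S473A and 7.32 in wt. SLC22A3 stood at -0.49 and MAP3K4 at -0.24 with the trends removed. The lowest of the 36 neighbours was CARS (-0.45), near PHLDA2 (0.17), and WARS (-0.42), also among the lowest, lay near the silent DLK1. With the trends removed CARS stood at -0.38 and WARS at -0.33. Next to GNAS, the cathepsin gene CTSZ (-0.45) and NELFCD (-0.38), a subunit gene of the negative elongation factor, were below 0, as was GNAS itself (-0.25). CTSZ stood at -0.63 and NELFCD at -0.40 with the trends removed while GNAS was at -0.02, so the shared direction depended on that step. At 13q14.2, beside RB1 at -0.32, ITM2B was at 0.07, MED4 at 0.05 and RCBTB2 at 0.10 as deposited. With the trends removed ITM2B (-0.37) and MED4 (-0.40) were close to RB1 (-0.44), and RCBTB2 was at 0.02, so the contrast between RB1 and its neighbours depended on that step. Near MEST, CEP41 was at 0.04 and the carboxypeptidase gene CPA4 at 0.17, against 0.65 for MEST; with the trends removed these were 0.12, 0.17 and 0.55.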

How the data were processed

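Total RNA from 3 libraries, 1 per form of KAP1, was sequenced by Illumina protocols, per the labels' protocols. Bowtie, Partek and build hg19 are named in the submitters' processing notes, while annotation, counting rule and use of strand are not given in these sources. The deposited values are log2 of RPKM with 0.1 added, read from the lowest value of -3.32 in every column. Of 19076 lines, 27 with date-like or repeated symbols were left out. RPKM was recovered by undoing the log.

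Differences were taken on log2(RPKM + 1) for 11569 genes averaging 1 RPKM or more, with 179 short RNAs left out, and genes were counted at 1.5-fold and 2-fold. RPKM is relative to all counted reads and to gene length, so a library's preference for short or long transcripts stays in it. Depth was estimated from the steps of low values, and 45.5% to 48.3% of those came out whole within 2% with GENCODE release 29 lengths, which may not be the authors'. No count model was fitted. Counting intervals and the floor of 3 reads rest on these estimates and cover counting error only. Smooth dependence on length and GC was taken out by lowess (fraction 0.2, 2 rounds, statsmodels 0.14.6) for the 93.2% of genes with a transcript, keeping the overall median. Steps were tested on simulated data (Python 3.11.15, numpy 2.4.6, scipy 1.17.1).

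The members and gene lists were chosen with earlier results of these data known. By rule all 36 members are named, and of the other lists TRIM28, ZFP57, ZNF445 and up to 5 highest and 5 lowest differences. DNMT1, ZDBF2, KCNQ1, ITM2B, MED4, RCBTB2 and, against wt, CEP41 were named after their values were seen. The alternatives tried were other pseudocounts, minimum levels, scalings, trend removal, keeping short RNAs, and other limits for silence.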

Additional observations from a re-analysis of the deposited data

How the results depend on the processing

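Counts at 2-fold stayed at 0 of the imprinted genes in all 3 comparisons under every alternative run, as did the count at 1.5-fold for S473A against wt. The count at 1.5-fold, 2 for S473D against wt and 2 for S473D against S473A, was 1 in both with a minimum mean of 5 RPKM, which leaves out MEST. It was also 1 in both with differences centred on their median and with trimmed mean scaling, where IGF2R was no longer past 1.5-fold. With length and GC trends removed and the median of all genes kept, the count was 0 in both. The count of 12 silent genes was 9 at a limit of 0.1 RPKM and 1 for genes listed at 0 in every library. The list's median for S473D against wt, -0.05 as deposited, ranged from -0.08 (minimum mean of 5 RPKM) to 0.05 (centred), and was 0.04 with trimmed mean scaling, so its sign depends on the scaling. For S473D against S473A it ranged from -0.17 to -0.03. The median of all genes was -0.10 in both comparisons before centring. Of 57 differences of single genes, 10 changed sign with the trends removed, 3 with trimmed mean scaling and 2 when centred, and none did with the other pseudocounts, without a minimum mean or with short RNAs kept. With a minimum mean of 5 RPKM, 36 of them could be computed and none changed sign. No paired analysis was possible because each group is 1 library. Below about 10 reads, depth limits what the silent genes can show.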

Other observations

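A further 66 symbols reported as imprinted in human or mouse, or lying in imprinted domains, were looked up, and 43 had a line. Of these 22 were below 1 RPKM in every library and 21 averaged 1 RPKM or more. Against wt, 8 of the 21 were above 0 in S473D and 13 below, with a median of -0.13 against -0.10 for all genes, and 0 were past 1.5-fold. GPR1 (0.46), a receptor gene of the ZDBF2 domain, and DGCR6L (0.38) were the highest. GPR1 was at 2.62 RPKM in S473D, 1.58 in S473A and 1.63 in wt, a ratio of S473D to wt of 1.60 (1.25 to 2.07), and its difference was 0.25 with length and GC trends removed, while ZDBF2 was at 1.38 RPKM in S473D, 1.72 in S473A and 1.87 in wt. SLC22A3 (-0.54), NAA60 (-0.52), RBP5 (-0.39), OSBPL5 (-0.32) and TRAPPC9 (-0.32) were the lowest. NAA60, which encodes an acetyltransferase of the Golgi and lies beside the silent ZNF597, was at 10.2 RPKM in S473D and 15.1 in wt. Between S473A and wt the list's median was -0.03, and RBP5, a retinol-binding protein gene, had the largest difference at -0.38, with 0.938 RPKM in S473A and 1.53 in wt and a counting interval of the ratio, 0.364 to 1.02, that included 1. The potassium channel gene KCNQ1, which KCNQ1OT1 silences on the paternal allele, was at 0.0137 RPKM in S473D and listed at 0 in S473A and wt.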
